A study of Arabidopsis thaliana with 48 samples.

Results

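Seedlings of the Arabidopsis thaliana line CCA1OX gave lower signals than Col at all 4 sampled times for a small set of transcripts. The set was defined on Affymetrix ATH1 arrays, which read each transcript with a group of short probes, called a probe set, and its levels are given here on the log2 scale, where 1 unit is a doubling. A probe set belonged to it when the mean of the CCA1OX arrays minus the mean of the Col arrays was -0.5 or lower at each time. Of 22746 probe sets that are not controls, 54 met this threshold, and AT3G25150, SWEET14 and 1 unnamed probe set, which the definition leaves out, are not described here. The remaining 51 probe sets are the members. A single gene was named for 22 of them, and the other 29 were not in the naming table used here and keep their probe set IDs.

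CCA1 is a MYB transcription factor of the circadian clock that accumulates around dawn and represses many genes expressed later in the day. Plants that overexpress it lose their daily rhythms and grow long hypocotyls. PIF4 and PIL5, also called PIF1, are basic helix-loop-helix factors that promote gene expression in the dark and are degraded in the light through phytochrome. PIF4 promotes hypocotyl elongation, and PIL5 is best known for holding back germination.

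All seedlings grew on 1X MSMO medium with 3% sucrose, in short days at first and, from dawn of day 4, in repeated cycles of 160 min light and 320 min dark. The pif4 pil5 double mutant was sampled in the dark at 280 min after dawn (6 arrays). CCA1OX and the accession Col were each sampled in the light at 120 min (5 arrays), in the dark at 280 min (6 arrays), in the light at 1080 min (5 arrays) and in the dark at 1240 min (5 arrays). The same clock times were sampled on days 4, 5 and 6, and each array took RNA of pooled seedlings. The labels call hypocotyls growing in CCA1OX at dark 280 and dark 1240 and in Col at dark 280, and not growing in the other groups. They do not give the promoter that drives CCA1 or the number of independent CCA1OX lines. CCA1, PIF4 and PIL5 had no named probe set here, so their levels in these lines are not given. For GI, an evening gene of the clock, CCA1OX minus Col was 0.67, 1.17, 1.15 and 2.85 on the log2 scale at light 120, dark 280, light 1080 and dark 1240, as values with no test.

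Each of the 21 CCA1OX arrays has a Col array of the same minute, day, time course and array batch. The arrays form 5 batches by the date in the array name and 2 campaigns of 24 arrays, and for CCA1OX and Col each campaign holds 1 time course. A score for darkness, the mean of 33 probe sets higher in the dark minus that of 135 lower in the dark on arrays of the second campaign, set 3 arrays of the first campaign apart. CCA1OX dark 280 replicate 2 and Col dark 280 replicate 3 scored -1.52 and -1.61, where the other dark arrays of that campaign lay between 0.95 and 2.88. In the light, Col light 1080 replicate 3 had a score of 2.04, and the rest of the campaign's light arrays ranged from -1.96 to -0.54. Without these 3 arrays, 53 probe sets met the rule, and 35 of them were members. Col light 1080 replicate 4 also decided the set's size: without it, 31 probe sets met the rule, all of them members. The median difference between 3' and 5' GAPDH probe sets was 0.09 in pif4 pil5, 0.48 in CCA1OX and 0.43 in Col, with both campaigns pooled. In Col it ran from 0.39 to 0.82 in the first campaign and from -0.13 to 0.33 in the second. In CCA1OX it ran from 0.46 to 0.84 in the first and from -0.01 to 0.86 in the second. The pif4 pil5 arrays, all of the second campaign, ran from -0.34 to 0.42. The part of this measure in the results was not tested.

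The named members have varied functions. The genes rps16, rpl22 and rpl14 are plastid genes for proteins of the plastid ribosome, and RH39 is a nuclear gene for a chloroplast RNA helicase that helps process ribosomal RNA. Cell wall and secreted proteins were represented by EXLB1 (an expansin-like protein), sks15 (a multicopper oxidase-like protein), AT3G49960 (a class III peroxidase), AT2G43880 (a polygalacturonase-like protein), AT5G10130 (an Ole e 1 family protein) and AT5G01870 (a lipid-transfer protein). Small defence-type or hormone-regulated peptides were AT1G66100 (a thionin family member), PDF2.5 (a plant defensin) and AT1G22690 (of the gibberellin-regulated GASA family). AT5G18600 and AT1G06830 encode CC-type glutaredoxins, small redox proteins. The other named members were AT1G23130 (of the major latex protein family), AT2G23910 (related to cinnamoyl-CoA reductases), AT1G52070 (a jacalin-type lectin), AT2G16660 (a major facilitator superfamily transporter), AT3G19430 (related to late embryogenesis abundant proteins), AT2G21640 (a marker of oxidative stress) and AT1G48570 (a zinc finger protein). By chromosome, 6 named members lie on chromosome 1, 4 on chromosome 2, 2 on chromosome 3, 3 on chromosome 4, 4 on chromosome 5 and 3 in the plastid genome. In the plastid genome, 2 genes lie between rpl22 and rpl14.

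The CCA1OX minus Col differences chose the members and are given as a description, with no test. Averaged over the 4 times, the median member was 0.87 lower in CCA1OX on the log2 scale, or 1.83-fold, while the median over all probe sets was 0.000269. The members' mean differences ran from -2.50 to -0.54. At least a 2-fold reduction of the mean was present in 10 members, and at each time in 2. Per time, the median member difference was -0.94 at light 120, -0.74 at dark 280, -0.74 at light 1080 and -0.79 at dark 1240. Light 120 was the time of the deepest difference for 23 members, dark 280 for 11, light 1080 for 11 and dark 1240 for 6. The differences were uniform in 12 members, whose 4 values spanned less than 0.3, and spread over more than 1 unit in 249606_at, 246114_at and 267364_at. In Col the members' mean signals ranged from 2.71 to 8.87, but signals of different probe sets are not on a common scale. Bulk RNA of whole seedlings cannot tell fewer cells that express a gene apart from less RNA per cell.

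**Figure D1:**
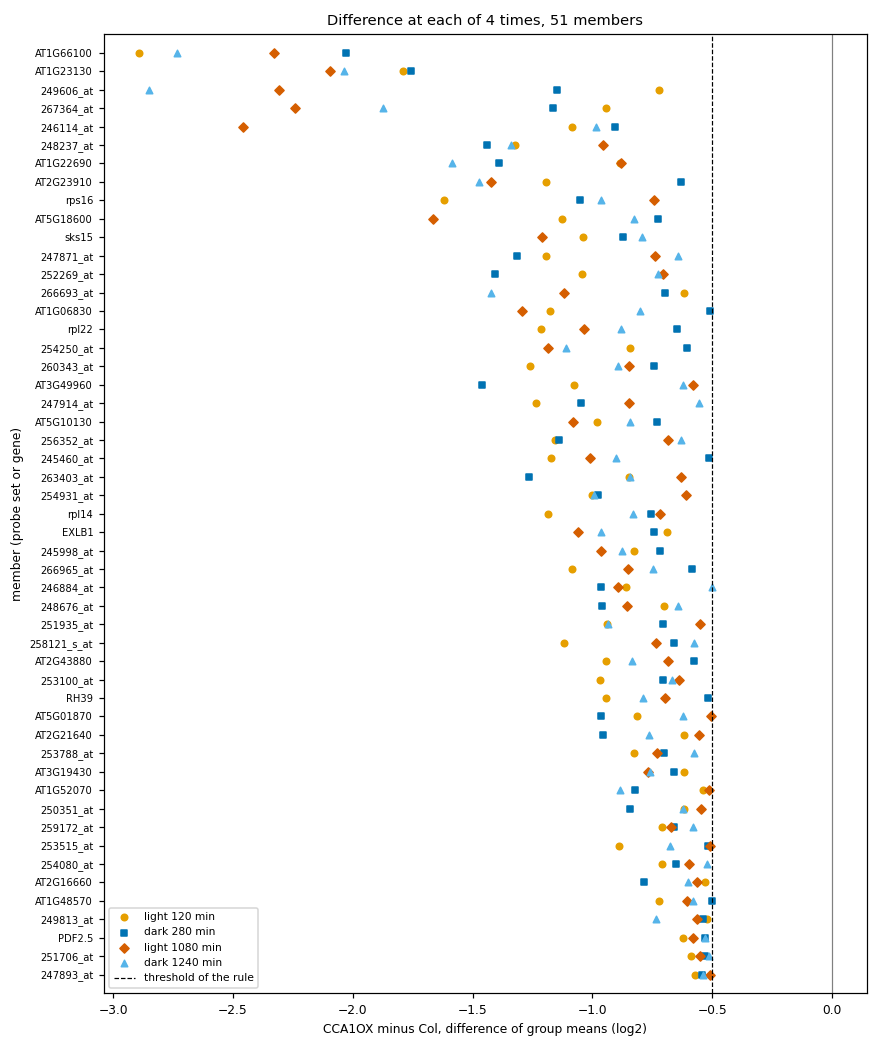
Difference of group means, CCA1OX minus Col (log2), for every member, with 1 point per time, ordered from the lowest mean at the top; the dashed line marks the threshold of -0.5. AT1G66100 lies lowest with a mean of -2.50, and all points are at or below the threshold because it defined the set.

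AT1G66100, the thionin family gene, had the deepest mean difference. Its 21 CCA1OX arrays ran from 2.58 through a median of 3.01 to 4.42, and its 21 Col arrays from 2.55 through a median of 6.06 to 8.01. The signal was low in nearly all CCA1OX arrays and variable in Col, where day 4 arrays of the second campaign at dark 280 and light 120 were as low as CCA1OX. The 4 differences were -2.89, -2.03, -2.33 and -2.73 from light 120 to dark 1240. AT1G23130, the latex protein relative, ran from 2.62 through 3.72 to 5.18 in CCA1OX and from 3.39 through 5.97 to 8.64 in Col. It was lower in CCA1OX in 20 of 21 pairs, although the ranges overlapped at each time.

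The probe set 248237_at separated the lines most cleanly. All 21 CCA1OX arrays, from 2.92 through 3.55 to 4.16, lay below all 21 Col arrays, from 4.40 through 4.79 to 5.21. At dark 1240 the 5 CCA1OX arrays had 3.39, 3.68, 3.80, 3.08 and 3.31, and the 5 Col arrays 5.03, 4.61, 5.04, 4.89 and 4.40. It was the single member whose lines did not overlap at any of the 4 times and the single one lower in 21 of 21 pairs, with a mean difference of -1.26. In pif4 pil5 at dark 280 it ran from 4.34 through 4.82 to 4.90, against 4.42 through 4.85 to 5.14 in Col.

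Other members with deep differences overlapped more. For 249606_at the CCA1OX arrays ran from 2.90 through 4.68 to 6.46 and the Col arrays from 3.09 through 6.43 to 9.38. For 267364_at they ran from 2.30 through 2.72 to 3.27 in CCA1OX and from 2.29 through 4.31 to 5.64 in Col. Both probe sets reached their lowest Col values on day 4. For 246114_at the CCA1OX arrays ran from 4.52 through 6.02 to 9.23 and the Col arrays from 5.91 through 7.94 to 10.22. For AT1G22690 the values were 2.96 through 4.60 to 6.89 in CCA1OX and 3.55 through 5.95 to 8.35 in Col. For AT2G23910 they were 2.01 through 2.68 to 5.93 in CCA1OX and 1.87 through 3.89 to 7.62 in Col. Each of these ranges overlapped between the lines over the whole series.

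**Figure D2:**
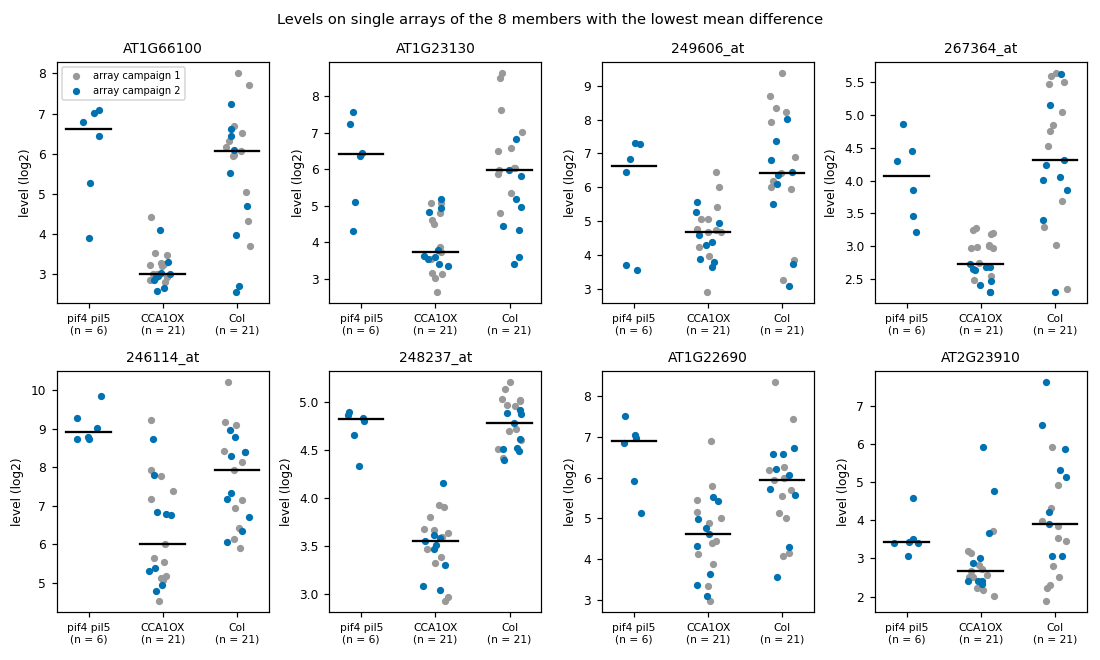
Level (log2) of the 8 members with the deepest mean difference on every array of pif4 pil5 (dark 280), CCA1OX and Col (all 4 times), coloured by campaign; bars are medians. Of these 8, only 248237_at, whose CCA1OX maximum is 4.16 and Col minimum 4.40, has no overlap of the lines across the series.

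Separation of single arrays was the exception among the members. CCA1OX lay below Col without overlap in 2 members at light 120 (background over all probe sets 0.747%), 2 at dark 280 (0.189%), 8 at light 1080 (0.519%) and 10 at dark 1240 (0.747%). These shares describe the same arrays that chose the set, so nothing is read from them. In 36 members the lines overlapped at every time. Pair by pair, CCA1OX was lower in 20 of 21 pairs for 8 members, and the least uniform members were lower in 15 pairs. The median residual standard deviation of the members was 0.745, against 0.244 over all probe sets.

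Mean differences of the members not yet named also stood between -0.97 and -0.54. They were 247871_at and 252269_at (both -0.97), 266693_at (-0.96), 254250_at and 260343_at (both -0.94), 247914_at (-0.92), and 256352_at, 245460_at, 263403_at and 254931_at (all -0.90). Next came 245998_at (-0.85), 266965_at (-0.82), 246884_at (-0.80), 248676_at (-0.79), 251935_at (-0.78), 258121_s_at (-0.77), 253100_at (-0.75) and 253788_at (-0.71). An ID ending in _s_at, as in 258121_s_at, marks a probe set that can match more than 1 transcript. The smallest were 250351_at and 259172_at (both -0.66), 253515_at (-0.65), 254080_at (-0.62), 249813_at (-0.59), 251706_at (-0.55) and 247893_at (-0.54). The named members below the deepest 8 ran from rps16 and AT5G18600 (both -1.09) to PDF2.5 (-0.57).

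The threshold cut through a continuum. Within 0.05 of it, 15 members lay inside and 23 probe sets outside. Just inside, AT1G48570 and 246884_at had a weakest difference of -0.501. Just outside, 246103_at had -0.499, and AT3G16670 missed at light 120 with -0.481 although its mean over the 4 times was -1.13. With the sign turned, 108 probe sets were at least 0.5 higher in CCA1OX at every time.

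The mean difference was more negative in the second campaign than in the first for 33 of 51 members. The median mean difference was -1.11 in the second campaign and -0.66 in the first. The 0.5 threshold was met at all 4 times within the second campaign by 38 members and within the first by 20, and 46 and 47 members were below 0 at every time. Both campaigns are part of the pooled means that chose the members. These counts are thus partly set by the rule and do not show that the differences recur. The shares of all probe sets below 0 at every time, or more negative in the second campaign, are not given here. The change of the line difference between campaigns is not the pooled difference that chose the members, but the 2 are fully independent only if arrays vary alike in both campaigns, and the median SD within groups was 0.578 in the second and 0.764 in the first. This contrast was added after the data were seen and tested with limma, like all tests here, with Benjamini-Hochberg adjustment over 22746 probe sets at 0.05. It called 3 members, each with a difference that was more negative in the second campaign, against a background of 0.703%.

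The 3 members were 260343_at, 251935_at and 259172_at. For 260343_at in the second campaign, CCA1OX ran from 3.50 through 4.91 to 5.87 and Col from 5.87 through 6.63 to 7.20. In the first, CCA1OX ran from 3.72 through 4.56 to 5.68 and Col from 3.90 through 4.54 to 5.92. The lines were thus apart in the second campaign and level in the first, and the change was -1.70 ± 0.35 (SE, adjusted p = 0.0126). For 251935_at the change was -1.39 ± 0.29 (SE, adjusted p = 0.0139), with second-campaign medians of 5.83 in CCA1OX and 7.32 in Col and first-campaign medians of 5.60 in CCA1OX and 5.87 in Col. For 259172_at it was -1.27 ± 0.27 (SE, adjusted p = 0.0139), with second-campaign medians of 3.84 in CCA1OX and 5.31 in Col and first-campaign medians of 3.68 in both lines. In all 3, the median that moved most between campaigns was that of Col. Without the 3 arrays that stand apart and their paired arrays, none of the 51 members passed this test, with adjusted p between 0.0630 and 0.105 for these 3. Campaign and time course cannot be told apart.

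**Figure D3:**
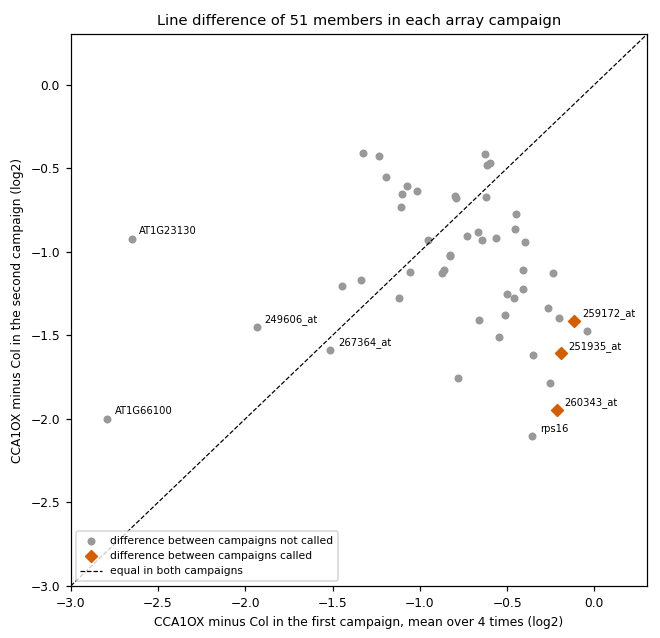
Mean CCA1OX minus Col difference (log2) of each member in the second campaign against the first, with the diagonal of equality. Diamonds are the 3 members called in the test of the change between campaigns. Below the diagonal lie 33 of 51 points, with medians of -1.11 in the second campaign and -0.66 in the first.

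The 3 plastid ribosomal protein genes shared the campaign pattern in their means. Differences of rps16 averaged -2.10 in the second campaign and -0.36 in the first, those of rpl22 -1.51 and -0.54, and those of rpl14 -1.38 and -0.51. The test of the change gave adjusted p of 0.107 for rps16, 0.449 for rpl22 and 0.415 for rpl14, so none passed. For rps16, second-campaign arrays ran from 3.13 through 5.05 to 5.90 in CCA1OX and from 5.64 through 7.25 to 8.37 in Col. In the first campaign they ran from 4.47 through 5.47 to 6.55 in CCA1OX and from 4.65 through 5.54 to 7.26 in Col. Among all 15 named plastid genes for ribosomal proteins, a list chosen after the values were seen, 11 were below 0 at every time with a median of -0.44. The 54 other named plastid genes had a median of -0.02, and 7 of them were below 0 at every time. The 15 genes include the 3 members, which the rule itself placed below 0 at every time. The share of all probe sets below 0 at every time was not computed, so nothing is read from these counts.

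Whether the members respond to light was asked of the mean of CCA1OX and Col. This mean is fully independent of the difference that chose the members only where both lines vary alike, and the SD within groups was larger in Col than in CCA1OX in 44 of 51 members (medians 0.538 in CCA1OX and 0.858 in Col). Dark minus light was positive in 5 members and negative in 1 past the threshold, 6 of 51 against a background of 15.3% of all probe sets (7.83% higher and 7.48% lower). The median of the members was 0.13, and that of all probe sets 0.01.

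The probe set 246114_at had the largest response. In the dark its CCA1OX arrays ran from 5.54 through 7.39 to 9.23 and its Col arrays from 6.42 through 8.40 to 10.22. In the light they ran from 4.52 through 5.16 to 6.02 in CCA1OX and from 5.91 through 6.83 to 9.18 in Col. The dark minima of 5.54 and 6.42 and the Col light maximum of 9.18 are from the arrays whose darkness score goes against their label. Among the other CCA1OX dark arrays the lowest value was 6.77. The level was higher in the dark in both lines, by 1.87 ± 0.24 (SE, adjusted p = 2.18e-07).

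Both glutaredoxin genes were higher in the dark. AT5G18600 had medians of 5.53 in CCA1OX and 6.15 in Col in the dark, against 3.95 in CCA1OX and 5.29 in Col in the light, and rose by 1.12 ± 0.28 (SE, adjusted p = 0.00358). AT1G06830 had medians of 5.56 in CCA1OX and 6.28 in Col in the dark, against 4.27 in CCA1OX and 5.54 in Col in the light, and rose by 0.83 ± 0.22 (SE, adjusted p = 0.00456). Ranges of dark and light arrays overlapped within each line for both genes. The remaining members higher in the dark were 266693_at by 0.96 ± 0.27 (SE, adjusted p = 0.0109) and 253100_at by 0.42 ± 0.14 (SE, adjusted p = 0.0407).

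AT2G23910, the reductase relative, went the other way. In the dark it ran from 2.01 through 2.41 to 3.01 in CCA1OX and from 2.23 through 3.45 to 5.33 in Col. In the light it ran from 2.51 through 3.17 to 5.93 in CCA1OX and from 1.87 through 5.02 to 7.62 in Col. It fell by 1.19 ± 0.33 in the dark (SE, adjusted p = 0.00921), and dark and light arrays overlapped in both lines. Within each campaign alone, 246114_at passed in both, and AT1G06830 and AT2G23910 passed in the second only. AT5G18600 (adjusted p = 0.182 in the second and 0.126 in the first) and 266693_at (adjusted p = 0.290 in the second and 0.132 in the first) passed in neither, and nor did 253100_at. Without the arrays that stand apart, 246114_at, AT5G18600, AT1G06830, 266693_at and AT2G23910 kept their calls. The score that set these arrays apart includes 246114_at and AT2G23910. The result of 253100_at without them is not given here.

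**Figure D4:**
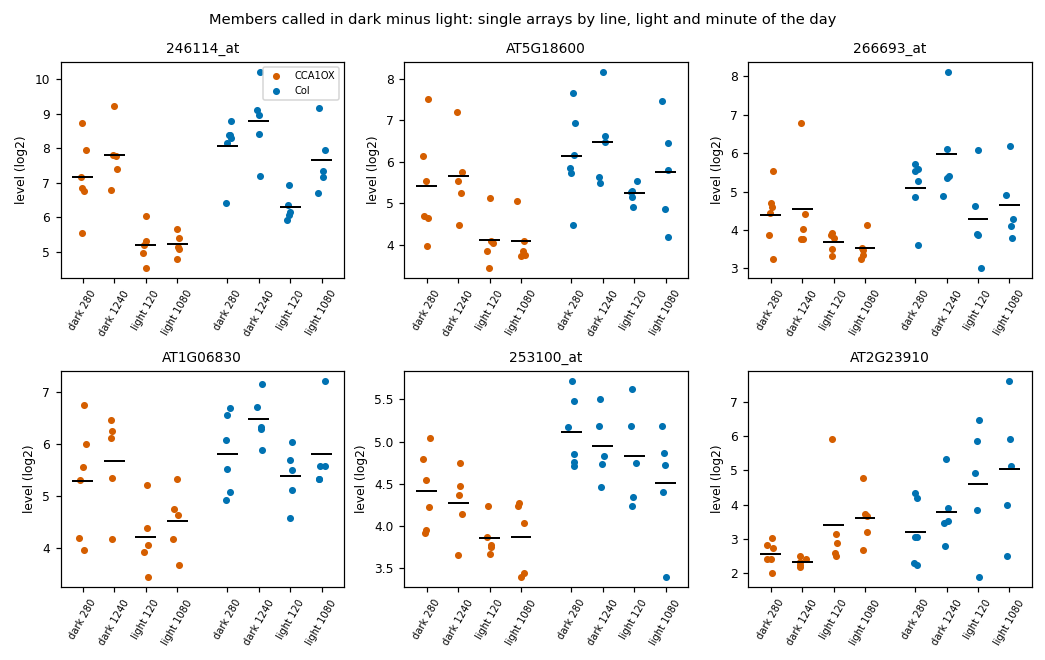
Level (log2) on single arrays of the 6 members called in dark minus light, by line and time, with dark left of light and CCA1OX left of Col; bars are means. The probe set 246114_at was higher in the dark by 1.87 and AT2G23910 lower by 1.19.

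Time of day within the dark or within the light called no member in the mean of CCA1OX and Col. A change in 1 line alone is diluted in this mean, and neither line was tested by itself. The largest changes were in 249606_at. In the limma test they were -1.873 for dark 280 minus dark 1240 (adjusted p = 0.289) and 1.625 for light 1080 minus light 120 (adjusted p = 0.473). For dark 280 minus dark 1240 the limma test called 0 of 51 (background 0.0264%, of which 0.022% higher and 0.0044% lower). Unadjusted p was under 0.05 in 4 members, beside 1057 of all 22746 probe sets. For light 1080 minus light 120 the limma test called 0 of 51 (background 0.022%). Here unadjusted p was under 0.05 in 6 members, beside 1162 of all 22746 probe sets. The lists of clock genes were fixed for dark minus light and for the pif4 pil5 test, not for time of day. They gave few named probe sets, and none is a member. The changes given next are dark minus light. Of 20 evening and day genes, 3 were named: COR27 was higher in the dark by 1.49 ± 0.28 (SE, adjusted p = 9.5e-05), AT4G33980 was higher by 0.60 ± 0.18 (SE, adjusted p = 0.0148), and GI was lower by 1.38 on the log2 scale. Of 8 REVEILLE relatives of CCA1, 2 were named, and both AT5G52660 and AT4G01280 were lower in the dark.

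At dark 280 the pif4 pil5 double mutant was set against the mean of CCA1OX and Col. In this test 15 members were higher and 0 lower, beside a background of 6.88% called, of which 3.55% higher and 3.33% lower. The median was 0.69 for the members and 0.03 for all probe sets. This reference lies below Col for every member by the way the members were chosen, so a line with Col levels would also stand above it. By the date in the array name, all arrays of the mutant belong to array batch 5, the last of the second campaign. What this date marks is not stated. With array batch as a block 8 members were called. The count was 7 without pif4 pil5 replicate 1, 9 without replicate 5, 4 in the second campaign alone and 3 without the 3 arrays that stand apart and their pairs. The shares of all probe sets called in these settings are not given here. A loss of member calls can thus not be told from fewer calls everywhere.

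Set beside each line alone, as a description, pif4 pil5 was closer to Col than to CCA1OX in 43 of 51 members. Its median member was 1.07 above CCA1OX, with 50 members above and 1 below, and 0.32 above Col, with 34 above and 17 below. Within the second campaign the medians were 0.96 above CCA1OX and 0.08 above Col. Within array batch 5, which has 1 array each of CCA1OX and Col at this time, they were 1.15 and 0.13. Those CCA1OX and Col arrays are from day 6, while the mutant's span days 4 to 6, and with the 2 mutant arrays of day 6 alone the medians were 0.88 above CCA1OX and 0.08 above Col. All 6 pif4 pil5 arrays lay above all 6 CCA1OX arrays in 21 members (background 3.13%), and above all 6 Col arrays in 0 members (0.528%). The CCA1OX and Col arrays are among those that chose the set, so nothing is read from these counts.

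The largest excess was in 250351_at. Its pif4 pil5 arrays ran from 4.33 through 4.91 to 6.18, its CCA1OX arrays from 1.70 through 1.85 to 3.20 and its Col arrays from 1.97 through 2.65 to 6.02. The mutant overlapped Col through a single Col array, replicate 5, and the excess was 2.52 ± 0.42 (SE, adjusted p = 1.41e-04). The other Col arrays of the second campaign at this time, replicates 4 and 6, had 2.59 and 2.92.

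AT1G66100 ran from 3.91 through 6.62 to 7.08 in pif4 pil5, from 2.58 through 3.21 to 3.31 in CCA1OX and from 2.55 through 5.39 to 7.24 in Col. Each pif4 pil5 array lay above each CCA1OX array and within the Col range, and the excess over the mean of the lines was 1.97 ± 0.55 (SE, adjusted p = 0.0230). The glutaredoxin gene AT5G18600 ran from 6.47 through 7.80 to 8.45 in pif4 pil5, from 3.96 through 5.11 to 7.50 in CCA1OX and from 4.47 through 6.00 to 7.66 in Col. Its excess was 1.81 ± 0.46 (SE, adjusted p = 0.0123). AT1G22690 had an excess of 1.74 ± 0.47 (SE, adjusted p = 0.0200), with pif4 pil5 arrays from 5.12 to 7.51. Without pif4 pil5 replicate 5, AT1G66100 and AT1G22690 no longer passed. With array batch as a block none of the 3 passed, and the excess was 1.53 for AT1G66100 (adjusted p = 0.123), 0.91 for AT5G18600 (adjusted p = 0.322) and 1.18 for AT1G22690 (adjusted p = 0.138).

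The further 11 members called had excesses over the mean of the lines, which lies below Col, between 0.65 and 1.68. They were 263403_at (1.68), 246114_at (1.45), AT2G21640 (1.41), 254931_at (1.36), AT3G19430 (1.29), AT1G06830 (1.13), AT5G10130 (1.04), 259172_at (0.98), 249813_at (0.80), 247893_at (0.78) and 248237_at (0.65). Set against Col alone, 248237_at was at -0.065, and the other members called in this test were above 0. Within the second campaign 259172_at was at -0.045, 248237_at at -0.008 and 254931_at at 0.008, and the other called members were higher. Not all members were above Col: at dark 280 the difference pif4 pil5 minus Col was -0.15 for rps16, -0.56 for rpl22 and -0.68 for rpl14. The peroxidase gene AT3G49960 had -0.97 and 256352_at -1.22.

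Many members differed between day 4 and day 6, some up and some down. Day 6 minus day 4, fitted beside the group means, called 25 members against a background of 20.2% (10.7% higher and 9.58% lower). Higher on day 6 were 11 and lower 14. Days and array batches are partly aligned, and with array batch as a block 6 members were called. Seedling age is thus not fully separated from array batch. The share of all probe sets called with this block is not given here, so the fall in member calls has no background beside it. The fit also treats CCA1OX and Col arrays of the same time course and day as independent samples. Their residuals from the group means correlated by 0.297 on average, so the p-values of this contrast can be too small.

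AT1G23130 rose most from day 4 to day 6. Its pif4 pil5 means were 4.70, 6.41 and 7.41 on days 4, 5 and 6 (n = 2 each). Its CCA1OX means were 3.24 on day 4 (n = 8), 3.98 on day 5 (n = 7) and 4.93 on day 6 (n = 6), and its Col means 4.73, 6.09 and 7.17 with the same n. The means increased in all 3 lines, and the modelled increase was 2.16 ± 0.25 (SE, adjusted p = 3.66e-08). The GASA gene AT1G22690 increased by 1.41 ± 0.23 (SE, adjusted p = 1.26e-05), the glutaredoxin AT5G18600 by 1.24 ± 0.27 (SE, adjusted p = 8.61e-04) and 254250_at by 1.60 ± 0.20 (SE, adjusted p = 1.49e-07). The other members higher on day 6 were AT1G66100 (1.18), 248676_at (1.16), 252269_at (0.80), 245460_at (0.75), AT1G06830 (0.74), 245998_at (0.69) and 248237_at (0.30).

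Of the members lower on day 6, 256352_at had pif4 pil5 means of 6.72, 5.33 and 4.37, CCA1OX means of 6.66, 5.67 and 4.40 and Col means of 7.01, 6.47 and 6.20 on days 4, 5 and 6. It fell by 1.62 ± 0.28 on the log2 scale (SE, adjusted p = 5.16e-05). The fall of the means was larger in CCA1OX than in Col, a difference that was not tested. 253788_at fell by 1.61 ± 0.20 (SE, adjusted p = 1.36e-07), 247871_at by 1.53 ± 0.26 (SE, adjusted p = 2.86e-05) and 247914_at by 1.34 ± 0.23 (SE, adjusted p = 4.33e-05). Also lower were AT3G49960 (-1.19), AT2G21640 (-1.08), 263403_at (-1.02), rps16 (-0.97), AT2G16660 (-0.97), 254931_at (-0.91), 250351_at (-0.85), AT2G43880 (-0.69), PDF2.5 (-0.67) and 258121_s_at (-0.51).

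**Figure D5:**
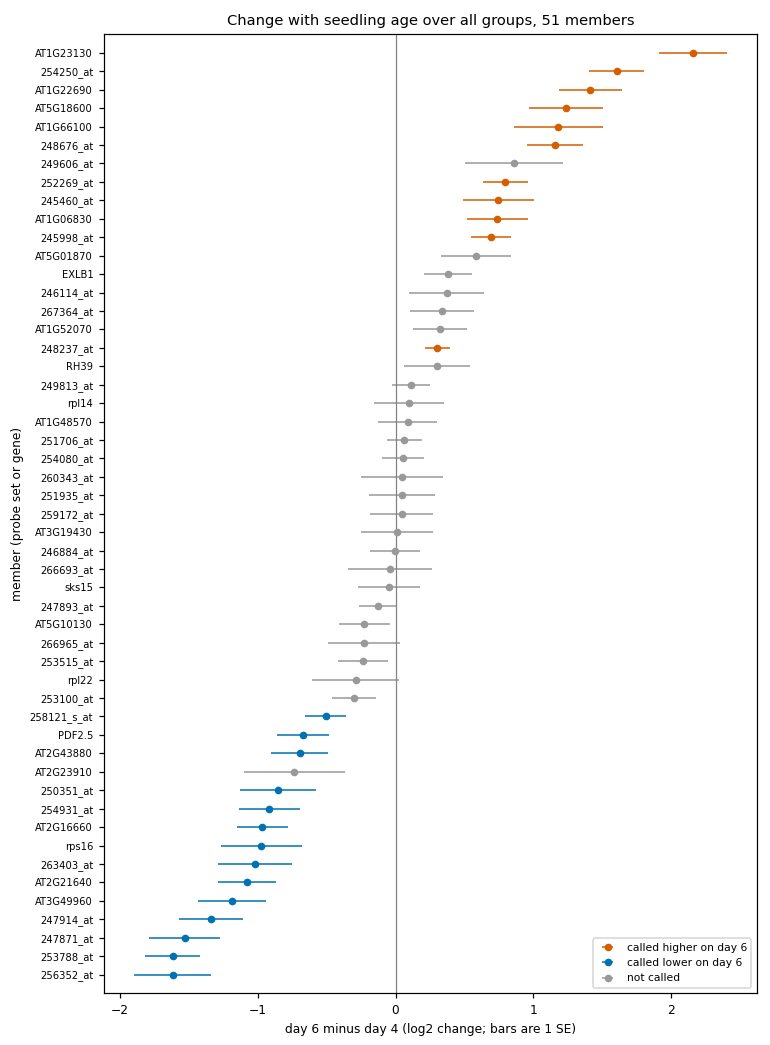
Change between day 4 and day 6 (day 6 minus day 4, log2) of each member over all groups; bars are 1 SE, and colours mark the 11 members called higher and the 14 called lower on day 6. AT1G23130 rose by 2.16 and 256352_at fell by 1.62.

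The line difference by day is given as a description. The median over members of the CCA1OX minus Col pair difference was -0.94 on day 4 (8 pairs), -0.92 on day 5 (7 pairs) and -0.70 on day 6 (6 pairs). The campaigns hold unequal numbers of these pairs, and from day 4 to day 6 the medians were -1.20, -1.07 and -0.78 in the second campaign and -0.63, -0.67 and -0.74 in the first. Days 5 and 6 also hold the 3 arrays that stand apart, and their part in these values was not tested.

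Markers of other tissues were few among the named probe sets, and none is a member. Of 8 root genes, 2 were named: EXPA7 differed by -0.60, -0.76, -0.57 and -0.18 between CCA1OX and Col from light 120 to dark 1240, and EXPA18 by -0.66, -0.83, -0.32 and -0.38. Both encode expansins of root hairs. The mean of these markers per array lay between 4.38 and 6.45 in pif4 pil5, between 4.12 and 6.42 in CCA1OX and between 4.66 and 7.20 in Col, and their part in the members' differences was not tested. Of 5 stomatal genes, 2 were named, SPCH and FMA, with differences between -0.41 and 0.10. CLV3, the named shoot meristem gene, had means from 2.15 to 2.36 in both lines and differences from -0.10 to 0.11. No gene of the photosynthetic shoot and seed storage lists was named, so these tissues were not checked.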

How the data were processed

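RNA of pooled whole seedlings was hybridised to 48 Affymetrix ATH1 arrays, and per the labels each array has a genotype, day, minute and light state. The deposited values are log2 expression made by the authors with RMA in the affy package (version not given), per the submitters' processing notes. RMA gives all arrays 1 distribution, which hides a change shared by most transcripts. Here 64 control probe sets were left out and 22746 kept. Gene names came from the platform annotation, with loci from RefSeq (TAIR10.1). Of the probe sets kept, 13513 had 1 gene, 503 several and 8730 none.

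The members and lists were chosen with earlier results of these data known. CCA1OX minus Col differences were not tested. The model, from limma 3.58.1 run under R 4.3.3, gave each of the 9 groups its own mean (39 residual degrees of freedom). Contrasts of the mean of CCA1OX and Col were tested two-sided, adjusted by Benjamini-Hochberg over all 22746 at 0.05. They do not use the difference that chose the members, but with equal array numbers they are independent of it only where both lines vary alike. Col varied more within groups than CCA1OX in 44 of 51 members (median SD 0.538 in CCA1OX and 0.858 in Col), so the independence is approximate. The same holds for the contrast between campaigns (median SD 0.578 in the second and 0.764 in the first). The day contrast added day as a factor, and the contrast between campaigns added campaign and campaign by line (37 residual degrees of freedom each). The fit was tested on simulated data. The p-values measure the spread between pooled-seedling samples over days and time courses, with all arrays treated as independent. Arrays of the same time course and day were correlated, as given below, so the p-values are approximate. Arrays give no counts, so their number limits the precision. Every member is named once, with single values or ranges for the 8 with the lowest mean difference and up to 4 called in each direction of a contrast; further values were added after they were seen.

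As a check of pairing, residuals of CCA1OX and Col arrays of the same minutes and title number correlated by 0.321 on average, with a lowest value of -0.0163, and the title number marks the time course. Between arrays of different groups, the mean correlation was 0.297 for the same title number and day. It was 0.0781 for the same title number on another day and -0.158 for different title numbers. These residuals are from the group means and still hold any effect of day. No promoter sequence was used here, so the planned motif search was not run. Alternatives covered blocks for replicate, array batch, and time course with day, each campaign alone, arrays left out, other scalings and variance models, a filter on dim probe sets, other thresholds and group medians.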

Additional observations from a re-analysis of the deposited data

Results flagged for a closer look

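Single arrays stood far from the rest of their group in 13 of 189 groups tested over 20 members and the members' mean; chance alone flags about 1 group in 20. The largest count of such values for a member was in 250351_at, which was high on 1 array in each of 4 groups: CCA1OX light 120 replicate 4 had 2.39, Col dark 280 replicate 5 had 6.02, Col light 1080 replicate 4 had 4.08 and Col dark 1240 replicate 4 had 4.74. AT2G23910 was high in pif4 pil5 replicate 4, at 4.59, and in CCA1OX light 120 replicate 4, at 5.93. The glutaredoxin genes were high on 1 array each, AT5G18600 at 5.05 in CCA1OX light 1080 replicate 5 and AT1G06830 at 7.21 in Col light 1080 replicate 2. That Col array was also high for AT1G22690, at 7.43. In CCA1OX dark 1240 replicate 3, 266693_at was high at 6.78. In Col light 1080 replicate 4, 259172_at was high at 5.55. Low values were 246114_at at 6.42 in Col dark 280 replicate 3, 1 of the 3 arrays whose darkness score goes against its label, and 254250_at at 3.48 in pif4 pil5 replicate 4. The score itself includes 246114_at, so the low value of 246114_at is not a separate observation.

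The limma test of the change between campaigns called the CCA1OX minus Col difference of 3 members: -1.70 for 260343_at, -1.39 for 251935_at and -1.27 for 259172_at (second minus first campaign, log2). Without the 3 arrays that stand apart and their paired arrays, none of them passed. Each campaign holds 1 time course of these lines, so campaign and time course cannot be told apart.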

How the results depend on the processing

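The number of members was 242 in the second campaign alone (38 shared with the 51) and 43 in the first (20 shared), 118 at a threshold of -0.4 and 27 at -0.6. Group medians gave 50, of which 22 were shared. Leaving out 1 array gave 31 to 60, the lowest without Col light 1080 replicate 4.

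The counts of called members that follow stand without the shares of all probe sets called in the same settings. They do not tell a loss of member calls from fewer calls everywhere. Of 6 members called in dark minus light, 1 was called in the first campaign alone and 3 with only probe sets at or above the median level; leaving out 1 array gave 5 to 7 and the replicate block 7. For pif4 pil5, 15 became 8 with array batch as a block, 25 with time course and day as a block, 4 in the second campaign alone, 3 without the 3 arrays that stand apart and their pairs, 9 without dim probe sets and 23 with array weights. Leaving out 1 array gave 7 to 21, with 7 without pif4 pil5 replicate 1 and 9 without replicate 5, and the replicate block gave 20. The time course and replicate blocks match arrays by number. They set some pif4 pil5 arrays, all of the second campaign, beside CCA1OX and Col arrays of the first campaign. These blocks are thus no shared time course for the mutant, and nothing is read from the 25 and the 20. For day, 25 became 6 with array batch as a block, 13 in the first campaign and 13 without dim probe sets; leaving out 1 array gave 24 to 26 and the replicate block 26. For the change between campaigns, 3 became 9 with array batch as a block, 0 without the 3 arrays and their pairs and 7 with array weights. Leaving out 1 array gave 3 to 7, with 7 without Col light 1080 replicate 5 and 5 without Col dark 280 replicate 1 or 6, and the replicate block 3. Of the named members' tests outside single arrays left out, 208 kept their call, 24 lost it and none changed direction. The CCA1OX minus Col difference itself was above 0 at 1 or more times in 5 members in the second campaign alone and in 4 in the first. Both time of day contrasts stayed at 0. The cause of these moves was not tested, except that campaigns alone and the filter use fewer arrays or probe sets. No first-campaign value exists for pif4 pil5, which has no arrays there, and time course with day as a block was not run for day and the change between campaigns. RMA values carry no detection call, so how far signal over background limits the dim members cannot be read from them.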
